A study of Mus musculus with 18 samples.

Results

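Periportal hepatocytes taken after an 8 h fast were compared with periportal hepatocytes of fed mice, over all genes expressed in the series. The comparison rests on 6 of the 18 libraries, chosen by their labels alone: 3 from fed mice and 3 from mice fasted for 8 h. Of the 28030 genes in the deposited table, 12477 passed the filter on low counts and were tested. The other 12 libraries were pericentral hepatocytes of both states and both zones after a 24 h fast, and the design addresses how fasting moves gluconeogenic gene expression across the liver lobule. RNA sequencing was done on hepatocytes that remained after digitonin, a membrane-permeabilising detergent, had removed those of the opposite zone.

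All mice were wild-type C57BL/6J males, 12 weeks old, on normal chow (lab diet #5053). They had been trained for 3 days to a 16 h overnight fast followed by daytime feeding. On the day of the experiment food came with drinking water holding 20% sucrose. The fed group was killed at clock hour 13, after 4 h of feeding, and the 8 h group lost food and sucrose at that hour and was killed at clock hour 21. Fasting and clock hour therefore changed together, and their effects on the 8 h group cannot be told apart. The labels number the libraries of a group 1 to 3 without tying each to a mouse, so p-values measure the spread between these samples.

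Periportal hepatocytes line the inflow of the lobule, where portal blood is richest in oxygen, hormones and nutrients, and they carry much of the liver's gluconeogenesis, urea synthesis and amino acid breakdown. After a meal, insulin drives glycolysis, glycogen storage and the synthesis of fatty acids and sterols through the factors SREBP-1c and SREBP-2. In fasting, falling insulin and rising glucagon and glucocorticoids release FOXO1, CREB and the glucocorticoid receptor to raise glucose output, while fatty acids from adipose tissue act through PPARα. The liver clock runs alongside, with BMAL1, CLOCK and NPAS2 activating the Per, Cry and Rev-erb genes that repress them in turn.

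The 6 libraries held between 24033862 and 26278425 estimated counts. Levels are given as CPM, counts relative to the library total after TMM scaling, which are not corrected for gene length. Fold changes compare levels within a gene. Sums over markers and rankings by difference in CPM run across genes and are weighted to genes with many counts. Across genes, Pearson's r of log2 CPM ran from 0.964 to 0.982 for replicates and from 0.956 to 0.964 for fed against 8 h libraries. On a first principal component with 41.4% of the variance the fed libraries lay between -39.2 and -28.6 and the 8 h libraries between 31.3 and 36.6. The second component (22.1%) spread the 8 h libraries from -45 (replicate 1) to 39 (replicate 3). The summed level of 8 periportal markers was 9340 to 11200 CPM in the fed libraries and 10300, 17800 and 16800 CPM at 8 h. That of 8 pericentral markers was 481 to 1750 and 528 to 1270 CPM, against 10400 to 16100 CPM in the pericentral libraries of the same states. The zone label thus matched its markers, with 1 caveat: 2 of the 8 periportal markers, Pck1 and Sds, were themselves called higher at 8 h.

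Markers of other liver cells were low but uneven among the 8 h libraries. The 6 endothelial markers tested summed to 11.2 to 12.3 CPM in the fed libraries and to 3.67, 6.85 and 34.2 CPM at 8 h. Sums for 6 Kupffer cell and leukocyte markers were 5.12 to 8.23 and 0.404, 9.34 and 13.3 CPM, and those for 3 stellate and fibroblast markers 3.88 to 5.58 and 0.767, 1.29 and 13.9 CPM. In all 3 lists 8 h replicate 1 was lowest and replicate 3 highest. None of these 15 markers was called, and Adgre1 and Csf1r were at 0 in 8 h replicate 1. Of 3 cholangiocyte markers, Sox9 was called higher (9.07 to 12.9 CPM in fed, 14.6 to 17.4 CPM at 8 h, edgeR adjusted p = 0.0367), and Krt7 and Spp1 were not. In bulk RNA, fewer cells of a type and less RNA per cell cannot be told apart, and the part of these markers in the gene results was not tested.

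At an adjusted p under 0.05 by edgeR's quasi-likelihood test, 943 genes were higher after the 8 h fast and 855 were lower. These are 7.56% and 6.85% of the genes tested, 14.4% together, and counts of list members called at 8 h against fed stand beside these shares. The lists were chosen with earlier results of these data known, so their counts and rankings are descriptions. The median log2 fold change over all genes was 0.01. Of the 1798 genes called, 479 changed by more than 1 on the log2 scale and 131 by more than 2. The 3 fed and 3 fasted libraries did not overlap for 1762 of the genes called, and for 3940 (31.6%) of all genes tested. Without fed replicate 1 the count fell to 1094, and it stayed between 1291 and 1617 without any of the other 5 libraries.

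**Figure D1:**
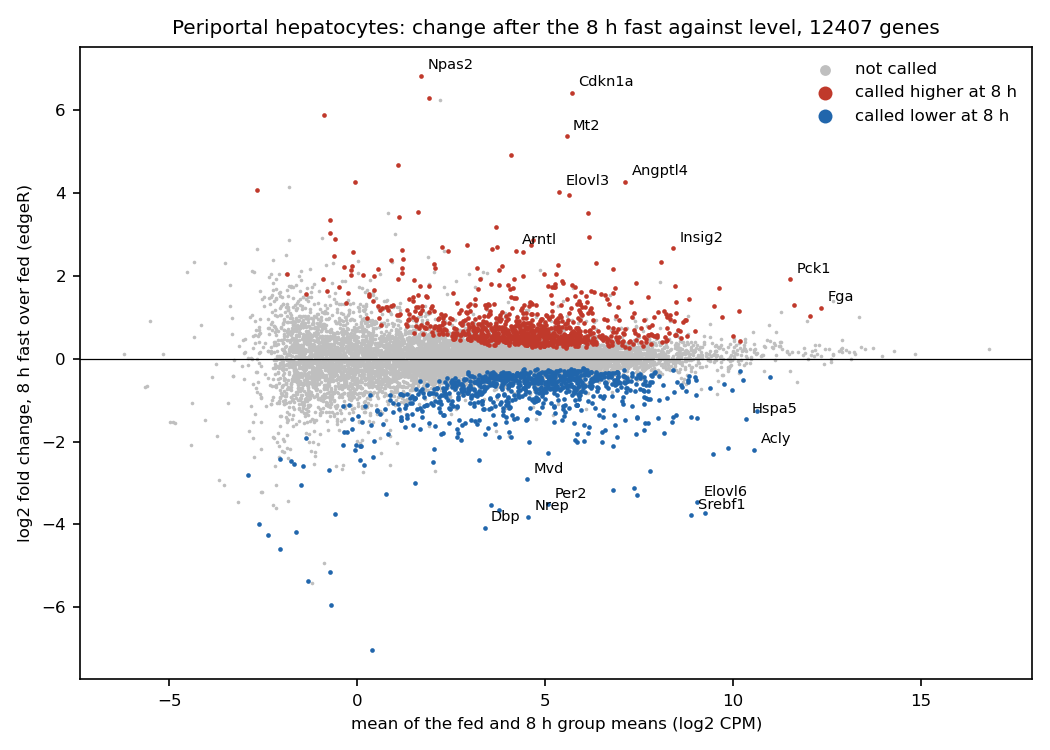
Change after the 8 h fast (y axis, log2 fold change by edgeR) against the mean level of the 2 groups (x axis, log2 CPM) for 12407 genes with a count in both groups. Each point is a gene, red where called higher, blue where called lower and grey otherwise, and the other 70 tested genes, with no count in 1 or both groups, are not drawn. Angptl4 and Cdkn1a lie far up, and Srebf1, Elovl6 and Per2 far down, among genes of moderate to high level.

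**Figure D2:**
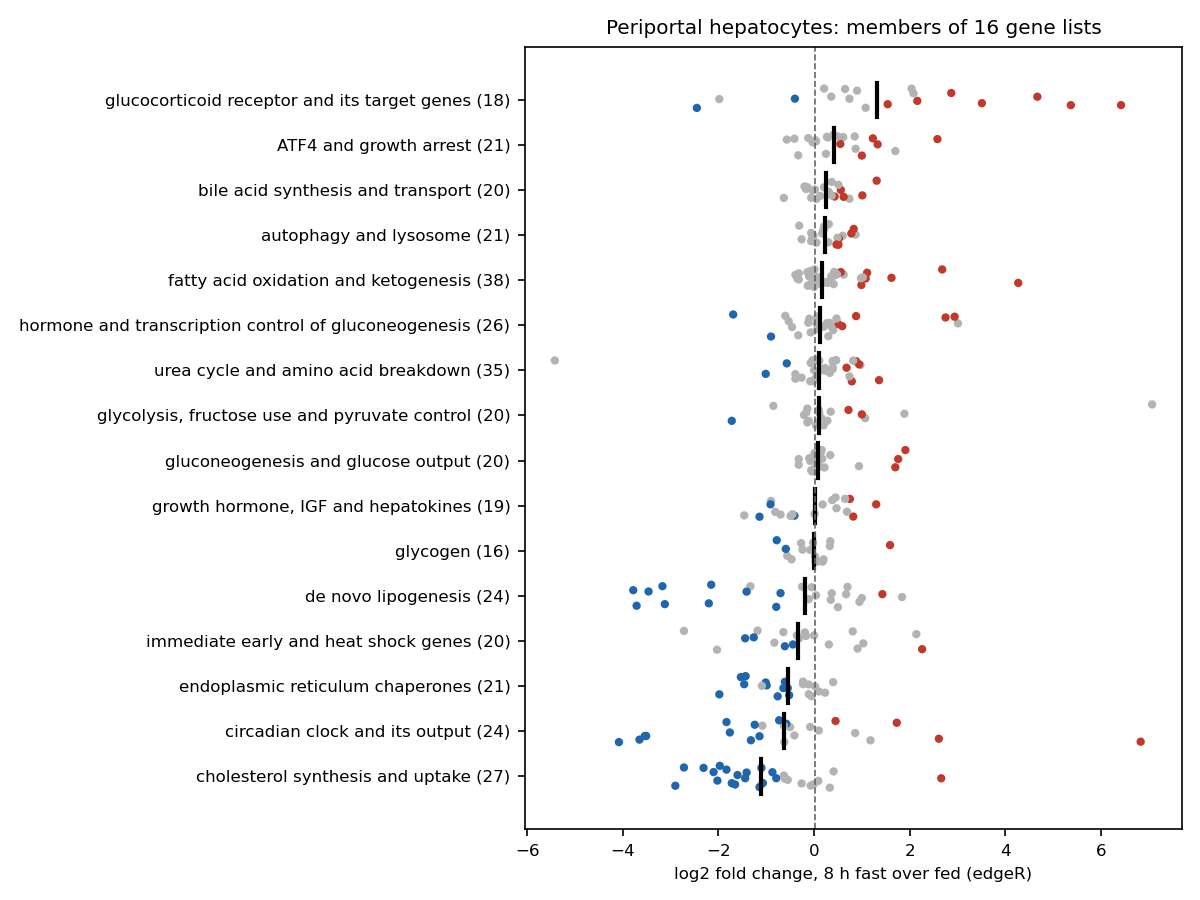
Log2 fold change at 8 h over fed (x axis) of every tested member of 16 gene lists, with the number of members in brackets. Red and blue points were called higher and lower, grey points were not called, black bars are list medians and the dashed line is the median of all genes. Cholesterol, clock and chaperone lists lie lowest, and the glucocorticoid list highest.

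Genes of gluconeogenesis and glucose release were called at about the share of all genes, 14.4%. Of 20 such genes, 3 rose, 0 fell and 17 were not called, and the list median was 0.08. Pck1 (ENSMUSG00000027513), the cytosolic enzyme that makes phosphoenolpyruvate, had 593, 927 and 2200 CPM in fed replicates 1 to 3 and 2570, 6060 and 5360 CPM in 8 h replicates 1 to 3. The groups did not overlap, but fed replicate 3 came close to 8 h replicate 1. The change was 1.91 on the log2 scale (SE 0.47, edgeR adjusted p = 0.0145). G6pc, the catalytic subunit that frees glucose from its phosphate, went from 264, 316 and 548 CPM to 746, 1350 and 1570 CPM, again with the highest fed value in replicate 3 and the lowest fasted value in replicate 1. Its log2 fold change was 1.70 (SE 0.35, adjusted p = 0.00472). Got1, the cytosolic aspartate aminotransferase that feeds oxaloacetate to Pck1, had 117, 188 and 179 CPM in fed and 199, 642 and 800 CPM in fasted libraries (1.76, SE 0.41, adjusted p = 0.0099), so that 8 h replicate 1 barely exceeded the fed range.

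Other enzymes of the list were not called. Fbp1, the fructose bisphosphatase, held 1440, 1470 and 1490 CPM in fed and 1310, 1450 and 1360 CPM in fasted libraries (-0.10, SE 0.12, adjusted p = 0.65). Pcx, which carboxylates pyruvate, had 88.7, 57 and 114 CPM and then 108, 237 and 152 CPM, with overlap (0.94, SE 0.34, adjusted p = 0.0799). Log2 fold changes of the pyruvate carriers Mpc1 and Mpc2, the malate dehydrogenases Mdh1 and Mdh2 and the mitochondrial aminotransferase Got2 lay between -0.08 and 0.05. Slc2a2, the glucose transporter of the plasma membrane, was not called in the periportal zone (-0.32, adjusted p = 0.322). The Pck1 call was lost without fed replicate 1, fed replicate 2 or 8 h replicate 2 and when only these 2 groups were fitted, with log2 fold changes of 1.58 to 1.91 and adjusted p up to 0.101. That of Got1 was lost without fed replicate 1 and with only these groups (adjusted p up to 0.104), and without fed replicate 1 the list kept 1 call, G6pc. It held 2 calls without fed replicate 2 or 8 h replicate 2 and 1 with only these groups, and its median ran from 0.01 to 0.10 with 1 library left out (0.01 without 8 h replicate 2).

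**Figure D3:**
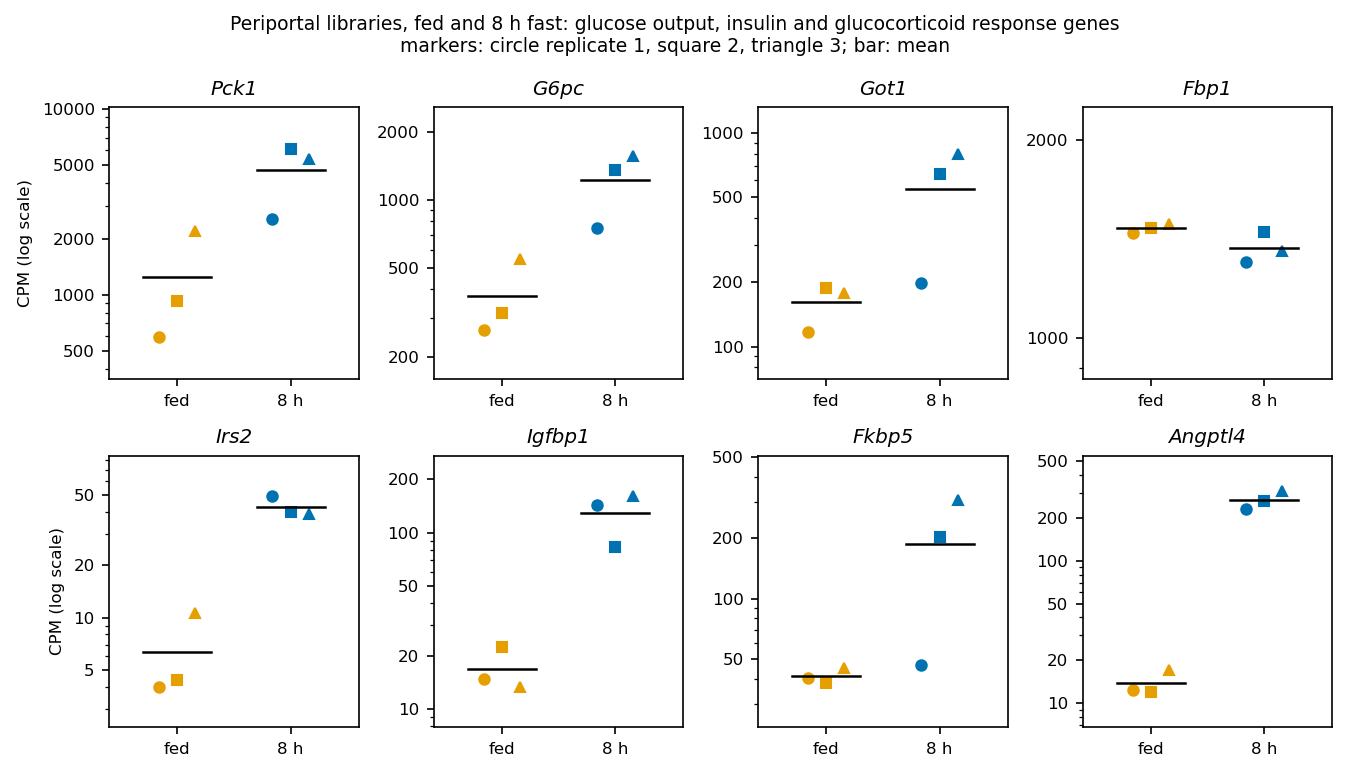
CPM (y axis, log scale) of 8 genes in the 3 fed and 3 fasted (8 h) periportal libraries. Symbols mark replicates 1 to 3 and bars the group means. Fed and fasted libraries of Angptl4 and Irs2 are far apart, Fkbp5 at 8 h runs from 46.7 to 307 CPM with replicate 1 near the fed level, and Fbp1 stays near 1400 CPM in both states.

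Upstream of glucose output, genes of insulin signalling were among those called. Of 26 hormone and transcription control genes 5 rose, 2 fell and 19 were not called (median 0.14). Irs2 (ENSMUSG00000038894), the adaptor of the insulin receptor, had 4.00, 4.39 and 10.7 CPM in fed and 49.6, 40.1 and 39.2 CPM in fasted libraries (2.75, SE 0.50, adjusted p = 0.00262). The receptor gene Insr rose from 103, 111 and 117 CPM to 171, 156 and 171 CPM (0.59, SE 0.08, adjusted p = 0.000159). Pik3r1, the regulatory subunit of phosphoinositide 3-kinase, fell from 93, 104 and 109 CPM to 53.9, 49.1 and 60.8 CPM (-0.90, SE 0.15, adjusted p = 0.000864). None of these 3 genes had overlapping groups.

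Foxo1, the transcription factor that insulin keeps out of the nucleus, went from 21.7, 30.5 and 28.9 CPM to 38.9, 52.5 and 57.4 CPM (0.88, SE 0.17, adjusted p = 0.00267). Igfbp1, a secreted IGF-binding protein that insulin represses, had 14.6, 22.5 and 13.3 CPM in fed and 143, 82.4 and 161 CPM in fasted libraries (2.94, SE 0.74, adjusted p = 0.0179). Crtc2, the coactivator of CREB, rose by 0.51 (adjusted p = 0.0203) and Pde4b, a phosphodiesterase that degrades cAMP, fell by 1.69 (adjusted p = 0.0115). The glucagon receptor Gcgr (0.05, adjusted p = 0.849), Creb1 (0.07, adjusted p = 0.816) and the kinase subunit Prkaca (-0.10, adjusted p = 0.65) were not called. Ppargc1a, the coactivator PGC-1α, overlapped with 10.4, 13.5 and 10.6 CPM in fed and 10.5, 18.7 and 16.4 CPM at 8 h (0.40, adjusted p = 0.287). The Igfbp1 call was lost without fed replicate 1 or fed replicate 3 (2.71 to 2.85, adjusted p up to 0.113 over the settings that lost it), and without fed replicate 1 the list held 3 genes higher. The list median ran from 0.06 without fed replicate 1 to 0.20 without fed replicate 2, and was 0.07 without 8 h replicate 2.

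The list of the glucocorticoid receptor and its target genes gave the highest list median, 1.31. Of 18 tested genes 7 rose, 2 fell and 9 were not called, and Sult1e1 and Pdk3 did not pass the filter. Cdkn1a (ENSMUSG00000023067), the cell cycle inhibitor p21, went from 1.9, 0.879 and 0.882 CPM to 61.2, 113 and 137 CPM. Its change was 6.42 (SE 0.83, adjusted p = 0.000254), with all fasted libraries far above the fed ones. The metallothioneins Mt1 and Mt2, which bind zinc and copper, had 8.91, 13.9 and 11.6 CPM (Mt1) and 2.81, 2.48 and 1.51 CPM (Mt2) in fed libraries. At 8 h Mt1 had 52, 160 and 180 CPM (3.51, SE 0.72, adjusted p = 0.00568) and Mt2 had 21.7, 104 and 154 CPM (5.37, SE 0.95, adjusted p = 0.00224). Both are similar in sequence, so the split of reads between them is uncertain.

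Within this list 8 h replicate 1 was repeatedly the lowest fasted library. Fkbp5, the receptor's cochaperone, had 40.4, 38.4 and 45.5 CPM in fed and 46.7, 202 and 307 CPM in fasted libraries (2.16, SE 0.48, adjusted p = 0.00862). Zbtb16, a zinc finger repressor, went from 5.49, 5.27 and 7.75 CPM to 15.3, 61.7 and 59.1 CPM (2.87, SE 0.62, adjusted p = 0.0073). Klf9, a Krüppel-like factor, was even across replicates, with 42.6, 44.1 and 61.2 CPM and then 135, 129 and 165 CPM (1.54, SE 0.14, adjusted p = 3.42e-06). Fam107a had 0.0413, 0.0799 and 0.331 CPM in fed and 0.404, 4.76 and 7.08 CPM in fasted libraries (4.67, SE 1.04, adjusted p = 0.00796), and its call was lost under limma-voom and with only these groups (adjusted p up to 0.176). The receptor gene Nr3c1 fell, from 89.4, 101 and 96.5 CPM to 71.4, 74.3 and 70.7 CPM (-0.40, SE 0.12, adjusted p = 0.0297), as did the growth arrest gene Gadd45a (-2.45, SE 0.46, adjusted p = 0.00267). Tsc22d3, which encodes GILZ, was not called (0.74, adjusted p = 0.119), nor was Sgk1 (1.08, adjusted p = 0.0682). The list held 7 or 8 genes higher without any 1 library. It held 1 lower gene without fed replicate 2 or 3 or any 1 of the 8 h libraries. DESeq2 called 11 genes of the list higher. With 1 library left out the list median ran from 0.92 without 8 h replicate 2 to 1.64 without fed replicate 3.

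Among genes of glycolysis, fructose use and pyruvate control, 2 of 20 rose, 1 fell and 17 were not called (median 0.10). Khk, the fructokinase, rose from 107, 128 and 87.1 CPM to 154, 260 and 228 CPM (1.0, SE 0.24, adjusted p = 0.0113). Its groups did not overlap, although the call was lost without 8 h replicate 2 (0.83, adjusted p = 0.0518). Pdp2, a phosphatase that activates pyruvate dehydrogenase, was called higher (0.72, SE 0.22, adjusted p = 0.0409), but 6 settings lost that call, among them leaving out any 1 of fed replicates 1 and 2 or of the 8 h libraries. Without 8 h replicate 2 the list had 0 genes higher, and without fed replicate 1, fed replicate 2 or 8 h replicate 3 it had 1, against 5 by DESeq2. The median ran from 0.04 without 8 h replicate 2 to 0.21 without fed replicate 2, and was 0.18 without 8 h replicate 1. Pklr, the liver pyruvate kinase, overlapped with 1230, 1280 and 500 CPM in fed and 929, 904 and 774 CPM in fasted libraries (-0.21, adjusted p = 0.731). Tkfc, which phosphorylates glyceraldehyde from fructose, had 1110, 1250 and 797 CPM and then 788, 951 and 1080 CPM (-0.16, adjusted p = 0.674). Gckr was near the floor, with 0 counts in the fed libraries and 47 at 8 h (0.606, 0.356 and 1.12 CPM), and was not called (adjusted p = 0.066). Against a floor of 3 counts over the group the ratio was 17.4, without the counting error of the 8 h libraries. In pericentral libraries Gckr had a mean ± SD of 1.10 ± 1.05 CPM in fed and 0.397 ± 0.349 CPM at 8 h (-1.42, edgeR adjusted p = 0.526).

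The lipogenic program split into genes that were called lower and genes that were not. Of 24 genes of fatty acid and triglyceride synthesis 10 fell, 1 rose and 13 were not called (median -0.18). Srebf1 (ENSMUSG00000020538), which encodes SREBP-1, had 953, 1090 and 624 CPM in fed and 70.3, 71.8 and 51.8 CPM in fasted libraries (-3.78, SE 0.38, adjusted p = 1.91e-05). Fasn, the fatty acid synthase, went from 1460, 1530 and 452 CPM to 75.3, 111 and 75.2 CPM (-3.71, SE 0.42, adjusted p = 5.83e-05). Elovl6, which elongates palmitate, fell from 1230, 1350 and 359 CPM to 79.9, 128 and 60.0 CPM (-3.46, SE 0.53, adjusted p = 0.000738). In each of these 3 genes fed replicate 3 was the lowest fed library, and it still exceeded every fasted one.

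Acly, which makes cytosolic acetyl-CoA, had 3460, 3290 and 785 CPM in fed and 383, 713 and 546 CPM in fasted libraries (-2.20, SE 0.54, adjusted p = 0.015). Acaca, the acetyl-CoA carboxylase of lipogenesis, fell by 1.41 (SE 0.31, adjusted p = 0.00756). Mid1ip1, a protein that promotes polymerisation of that carboxylase, fell from 298, 340 and 259 CPM to 37.9, 43.5 and 21.6 CPM (-3.12, SE 0.27, adjusted p = 4.77e-06). Its relative Thrsp had 1890, 2100 and 579 CPM and then 131, 490 and 406 CPM (-2.15, SE 0.62, adjusted p = 0.0321). Angptl8, a secreted inhibitor of lipoprotein lipase induced by feeding, fell by 3.17 (SE 0.45, adjusted p = 0.000425), Dgat2 of triglyceride synthesis by 0.70 (adjusted p = 0.0114) and the desaturase gene Fads2 by 0.79 (adjusted p = 0.00122). The Acly call was lost in 5 settings, including without fed replicate 1 or 2 or 8 h replicate 1 or 3 (adjusted p up to 0.0764). That of Thrsp was lost in 7, among them the same 4 omissions (adjusted p up to 0.121). Leaving out single libraries left 7 to 11 genes lower, with 11 without fed replicate 3.

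Other lipogenic genes were not called lower. Pnpla3 had 10.4, 12.5 and 1.25 CPM in fed and 2.46, 4.85 and 2.28 CPM in fasted libraries, with overlap (-1.33, SE 0.65, adjusted p = 0.203). Scd1, the stearoyl-CoA desaturase, had 8190, 11400 and 1580 CPM in fed and 13400, 18000 and 10800 CPM in fasted libraries (1.0, SE 0.53, adjusted p = 0.248). Acacb, the carboxylase of the mitochondrial surface, had 218, 166 and 42.5 CPM and then 227, 341 and 253 CPM (0.95, adjusted p = 0.202). Acss2, which activates acetate, and Me1, the cytosolic malic enzyme that yields NADPH, had log2 fold changes of 0.70 (adjusted p = 0.202) and 0.35 (adjusted p = 0.547). Elovl5, which elongates polyunsaturated fatty acids, rose from 267, 258 and 211 CPM to 699, 773 and 514 CPM (1.43, SE 0.21, adjusted p = 0.000256). For Scd1, Acacb, Acss2 and Me1, fed replicate 3 was the lowest of the 6 libraries. Without 8 h replicate 1, 3 genes of the list were higher and 8 lower.

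Cholesterol synthesis and uptake gave the largest share of falling genes among the 16 lists, 17 of 27, with 1 rising, 9 not called and a median of -1.10. Mvd, the mevalonate diphosphate decarboxylase, fell from 47.3, 43.5 and 31.9 CPM to 5.33, 5.69 and 5.36 CPM (-2.90, SE 0.26, adjusted p = 4.07e-06). Enzymes of squalene and lanosterol formation also fell: Fdft1 by 2.02 (adjusted p = 6.54e-05), Sqle by 2.10 (adjusted p = 0.000533) and Lss by 1.65 (adjusted p = 0.000282). Aacs, which activates acetoacetate for lipid synthesis and was named for its fold change, went from 372, 330 and 249 CPM to 33.7, 24.7 and 39.1 CPM (-3.29, SE 0.37, adjusted p = 5.83e-05).

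Srebf2, which encodes the regulator of these genes, held 46.1, 44.6 and 60.5 CPM and then 47.4, 51.8 and 50.9 CPM (-0.01, adjusted p = 0.974). Its chaperone gene Scap was not called either (0.41, adjusted p = 0.0948). Both retention factors of the SREBPs changed, in opposite directions. Insig1 fell from 1480, 1370 and 710 CPM to 225, 271 and 224 CPM (-2.31, SE 0.27, adjusted p = 4.83e-05). Insig2 (ENSMUSG00000003721) rose from 94.1, 91.1 and 92.5 CPM to 356, 776 and 629 CPM (2.66, SE 0.32, adjusted p = 7.89e-05). Fed libraries agreed closely for Insig2 and 8 h replicate 1 was the lowest fasted library. Of the late enzymes, Dhcr7 (-0.63, adjusted p = 0.148), Nsdhl (-0.07, adjusted p = 0.884) and Ebp (0.09, adjusted p = 0.706) were not called. Leaving out any 1 library left 15 or 16 genes lower and 1 higher.

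**Figure D4:**
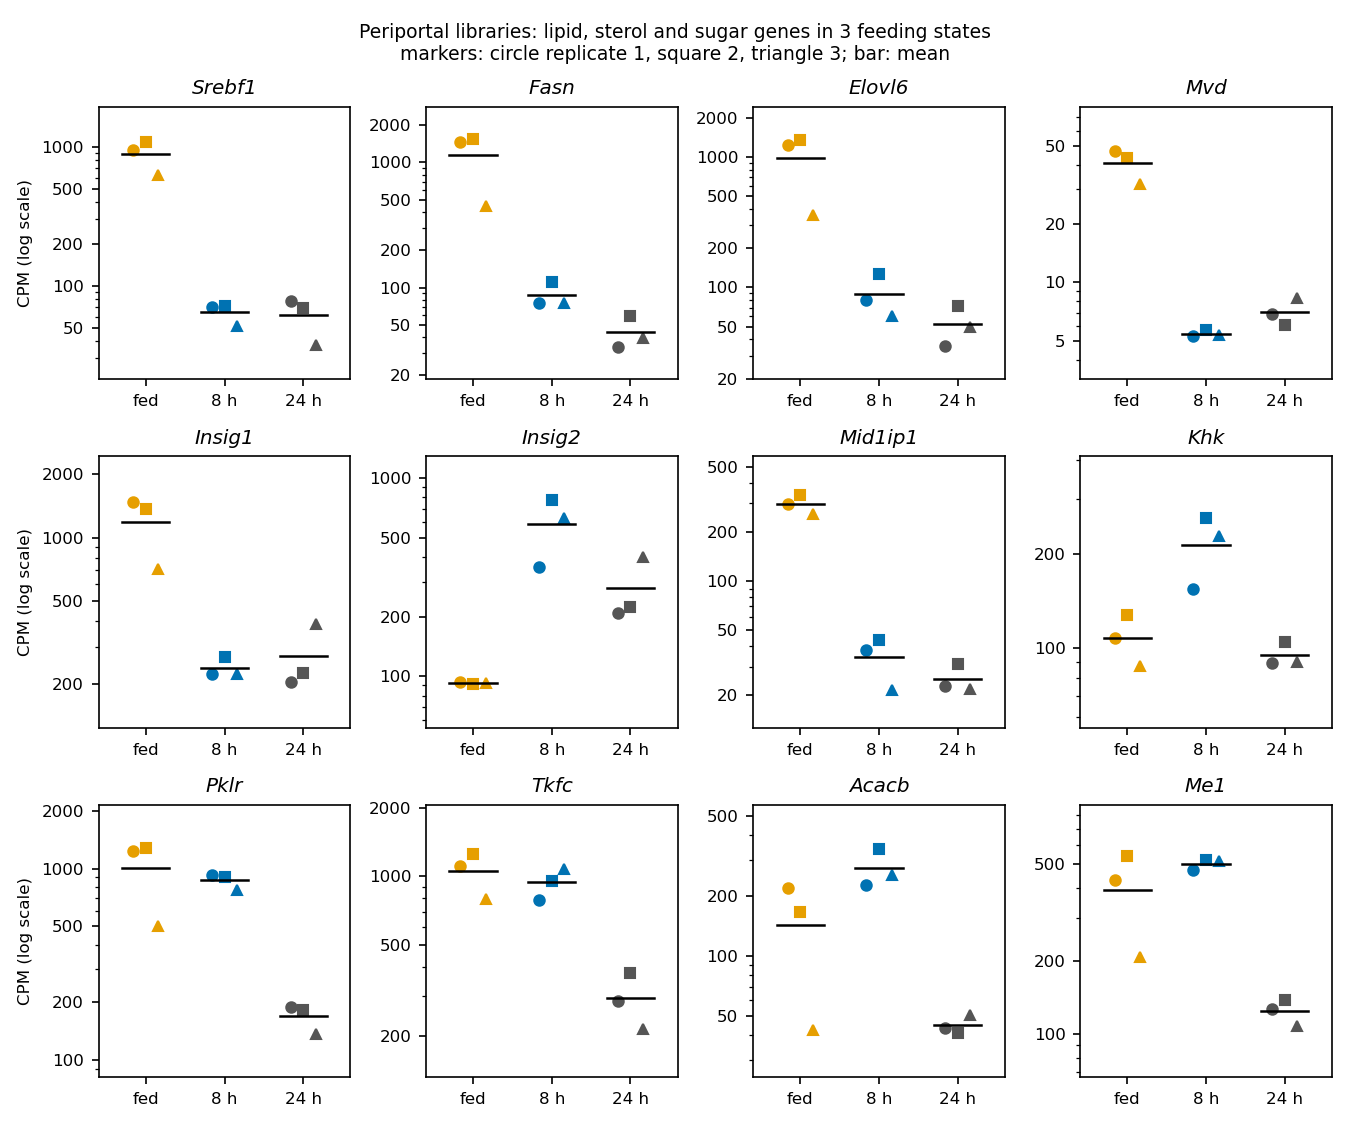
CPM (y axis, log scale) of 12 genes in periportal libraries of fed, 8 h and 24 h fasted mice, with symbols for replicates 1 to 3 and bars for means. Srebf1, Fasn, Elovl6, Mvd, Insig1 and Mid1ip1 are low by 8 h, Insig2 and Khk are highest at 8 h, and Pklr, Tkfc, Acacb and Me1, none of them called between 8 h and fed, are low at 24 h.

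In fatty acid use, the genes called act on lipoprotein lipolysis, lipid droplets, acyl-CoA handling and entry into mitochondria. Of 38 genes 7 rose, 0 fell and 31 were not called (median 0.17). Angptl4 (ENSMUSG00000002289), a lipoprotein lipase inhibitor and PPARα target, went from 12.5, 11.9 and 17.2 CPM to 229, 264 and 311 CPM (4.27, SE 0.30, adjusted p = 6.47e-07). The lipid droplet coats Plin5 and Plin2 rose, Plin5 from 37.4, 34.6 and 38.1 CPM to 95.2, 102 and 141 CPM (1.62, SE 0.29, adjusted p = 0.00199) and Plin2 from 247, 232 and 198 CPM to 732, 370 and 361 CPM (1.11, SE 0.24, adjusted p = 0.00568). Pnpla2, the droplet lipase ATGL, had 37.6, 38.8 and 43.6 CPM and then 64.0, 89.3 and 100 CPM (1.08, SE 0.14, adjusted p = 8.11e-05). Cpt1a, which carries fatty acids into mitochondria, went from 300, 232 and 317 CPM to 434, 345 and 473 CPM (0.56, SE 0.15, adjusted p = 0.0163). Also called was Cyp4a32, a fatty acid ω-hydroxylase with near-identical relatives (0.99, adjusted p = 0.00389). Groups did not overlap for any of these 6 genes.

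Acot1, a cytosolic acyl-CoA thioesterase, had 3.09, 2.24 and 5.25 CPM in fed and 45.0, 10.7 and 12.6 CPM in fasted libraries, where replicate 1 stood far above the others (2.68, SE 0.74, adjusted p = 0.0269). Its call was lost in 7 settings (1.72 to 2.69, adjusted p up to 0.158), among them without 8 h replicate 1 and without fed replicate 1 or 2, and its reads may be shared with the near-identical Acot2. Plin2 was lost with only these groups and with both fed replicate 3 and 8 h replicate 1 left out (0.61 at the lowest). Cpt1a was lost without fed replicate 2, without 8 h replicate 3 and with only these groups (adjusted p up to 0.0826). The dehydrogenases Acadvl, Acadl, Acadm and Acads and the trifunctional subunits Hadha and Hadhb lay between -0.14 and 0.01, none of them called. Cyp4a10 and Cyp4a14, PPARα targets with near-identical relatives, were highest in fed replicate 3 (1150 and 2690 CPM against 158 to 187 and 504 to 632 CPM in the other fed libraries) and were not called. Without fed replicate 3 the list had 9 genes higher, and 5 or 6 without fed replicates 1 or 2 or 8 h replicates 1 or 3. Without 8 h replicate 1, 1 gene of the list was lower and the median turned to -0.03. The median was 0.02 without fed replicate 2, 0.31 without 8 h replicate 2 and 0.38 without fed replicate 3, and with only these groups 4 genes were higher.

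Nitrogen handling changed in single transporters and breakdown enzymes, with the urea cycle itself not called. Of 35 genes 5 rose, 2 fell and 28 were not called (median 0.11). Cps1, the first urea cycle enzyme, had 4710, 5500 and 5380 CPM in fed and 3880, 7480 and 6920 CPM in fasted libraries (0.23, adjusted p = 0.523), and Ass1, Asl, Otc and Arg1 had log2 fold changes from -0.07 to 0.46. Slc7a2, a cationic amino acid transporter, rose from 252, 281 and 345 CPM to 349, 647 and 688 CPM (0.94, SE 0.21, adjusted p = 0.00608). Aass, the first enzyme of lysine breakdown, went from 259, 269 and 334 CPM to 327, 617 and 641 CPM (0.88, SE 0.20, adjusted p = 0.00786), with 8 h replicate 1 inside the fed range. Of the glycine cleavage system, Amt (0.79, adjusted p = 0.00608) and Gldc (0.68, adjusted p = 0.0231) rose. Bcat2, an aminotransferase of branched-chain amino acids, fell by 1.01 (SE 0.19, adjusted p = 0.00216) and the glutamine transporter Slc38a3 by 0.57 (adjusted p = 0.0332).

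Sds, the serine dehydratase of periportal cells, had 187, 211 and 210 CPM in fed and 222, 629 and 710 CPM in fasted libraries (1.36, SE 0.41, adjusted p = 0.0407). That call was lost in 8 settings, including without any 1 library other than 8 h replicate 1 (adjusted p up to 0.145). Tat, the tyrosine aminotransferase, had 1780, 2430 and 2210 CPM and then 964, 4440 and 3010 CPM (0.39, adjusted p = 0.621), so that 8 h replicate 1 was the lowest of all 6 and replicate 2 the highest. Leaving out 8 h replicate 1 gave 8 list members higher and 1 lower. Leaving out fed replicate 1 or 2 or 8 h replicate 2 or 3 gave 3 higher and 1 lower. The median was -0.02 without 8 h replicate 2, 0.05 without fed replicate 1, 0.20 without fed replicate 2 and 0.26 without 8 h replicate 1, and only these groups gave 3 higher. Cdo1, a cysteine dioxygenase named for its rise in CPM, went from 528, 844 and 767 CPM to 1240, 1770 and 1730 CPM (1.15, SE 0.17, adjusted p = 0.000359).

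The clock list changed in both directions. Of 24 clock and clock output genes 4 rose, 11 fell and 9 were not called (median -0.62). Per2 (ENSMUSG00000055866), a core repressor, had 59.1, 72.6 and 56.3 CPM at clock hour 13 and 5.65, 6.27 and 4.52 CPM at clock hour 21 (-3.51, SE 0.18, adjusted p = 5.47e-09). Per3 fell from 21.9, 29.3 and 25.5 CPM to 1.98, 2.05 and 2.1 CPM (-3.65, SE 0.29, adjusted p = 1.2e-06). Dbp, a PAR domain transcription factor of clock output, fell from 12.8, 24.0 and 23.0 CPM to 1.17, 1.11 and 1.26 CPM (-4.08, SE 0.57, adjusted p = 0.000384). In these genes the fasted libraries lay within a narrow band far below the lowest fed library.

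Wee1, a mitotic kinase under clock control, fell from 18.4, 25.5 and 21.5 CPM to 2.06, 1.73 and 1.82 CPM (-3.54, SE 0.32, adjusted p = 4.77e-06). Tef, a relative of Dbp, went from 116, 161 and 146 CPM to 35.0, 43.6 and 46.4 CPM (-1.76, SE 0.23, adjusted p = 0.000169), and Nr1d2, the repressor REV-ERBβ, fell by 1.32 (adjusted p = 0.000422). Ciart, another repressor of the loop, had 5.12, 8.87 and 7.82 CPM and then 0.444, 1.82 and 3.96 CPM (-1.83, SE 0.56, adjusted p = 0.0414), the most uneven of these genes at 8 h. Hlf, Cry2, Bhlhe40 and Tfrc also fell, by 0.58 to 1.24. Per1 stayed at 19.3, 24.0 and 22.7 CPM and then 22.5, 20.7 and 27.6 CPM (0.10, SE 0.17, adjusted p = 0.757), with overlapping groups, and Nr1d1 was not called (-0.63, adjusted p = 0.313).

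Of the genes that rose, Arntl, which encodes BMAL1, went from 6.11, 3.95 and 5.69 CPM to 34.6, 30.9 and 30.5 CPM (2.61, SE 0.35, adjusted p = 0.000238). Npas2 (ENSMUSG00000026077), a partner of BMAL1, had 4 counts in the 3 fed libraries together and 455 in the fasted ones. This is a ratio of 127 after scaling, with a 95% exact binomial interval of 49.1 to 467 that covers counting error only (edgeR adjusted p = 6.47e-07). Nfil3, which opposes Dbp at its sites, rose from 15.9, 17.7 and 19.5 CPM to 69.3, 59.2 and 47.5 CPM (1.73, SE 0.21, adjusted p = 7.72e-05). Csnk1d, a kinase that phosphorylates PER proteins, rose by 0.45 (adjusted p = 0.00245). Clock (12.7 to 16.5 CPM in fed, 31.3 to 34.0 CPM at 8 h, adjusted p = 0.0653) and Cry1 (21.1 to 23.4 and 35.7 to 43.5 CPM, adjusted p = 0.0642) did not overlap but were not called. Without 8 h replicate 1 the list had 7 genes lower, and without any 1 other library 8 or 9, each time with 4 higher. DESeq2 called 6 genes of the list higher and 11 lower, and with only these groups 6 were higher and 10 lower.

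Promoters of 3 clock genes that fell are shown because the letters that clock factors are known to bind occur in them. RefSeq windows of 300 bases, from 250 before to 50 after the start (GRCm38.p6), matched 19 of the 24 clock genes by symbol. The E-box CACGTG, bound by BMAL1 with CLOCK or NPAS2, was found on either strand in 5 of these 19 genes (Bhlhe41, Ciart, Cry1, Per1 and Tef) and in 7.15% of all 32851 windows. The D-box TTATGTAA or TTACGTAA, bound by DBP, TEF, HLF and NFIL3, was found in Per3 and in 1.06% of all windows. Hlf held the cAMP response element TGACGTCA, found in 1.79% of all windows. Among the 8 genes with a window that fell, 2 held an E-box and 1 a D-box, and among the 3 that rose none held either. A gene counted if any of its windows matched, and some genes had several windows, so shares of genes and of windows are unlike measures. A match of letters is a description and not a binding site. The 250 bases before the start follow, 5′ to 3′ on the strand of the gene, with the motif in capitals, for Ciart at chr3:95882229-95882478 (minus strand), Tef at chr15:81802423-81802672 (plus strand) and Per3 at chr4:151044666-151044915 (minus strand).
Ciart: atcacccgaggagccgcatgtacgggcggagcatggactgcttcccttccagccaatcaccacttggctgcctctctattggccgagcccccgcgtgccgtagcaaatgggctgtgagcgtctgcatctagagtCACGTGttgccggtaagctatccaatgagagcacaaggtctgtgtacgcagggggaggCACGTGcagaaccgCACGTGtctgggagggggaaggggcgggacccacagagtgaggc
Tef: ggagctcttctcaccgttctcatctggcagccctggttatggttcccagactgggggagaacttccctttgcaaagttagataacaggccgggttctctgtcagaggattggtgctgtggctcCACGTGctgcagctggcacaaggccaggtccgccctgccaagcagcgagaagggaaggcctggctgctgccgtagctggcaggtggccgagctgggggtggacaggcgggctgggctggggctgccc
Per3: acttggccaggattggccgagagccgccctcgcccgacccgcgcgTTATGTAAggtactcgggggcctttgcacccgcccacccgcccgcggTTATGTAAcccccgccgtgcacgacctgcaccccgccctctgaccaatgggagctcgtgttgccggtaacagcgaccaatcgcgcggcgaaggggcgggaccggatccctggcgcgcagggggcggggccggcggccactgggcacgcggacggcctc
Ciart held 3 E-boxes, which began 44 to 116 bases before the start, and Per3 held 2 D-boxes at 158 and 205 bases. The Tef window shown held 1 E-box at 127 bases, and another Tef window, not shown, also held 1.

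**Figure D5:**
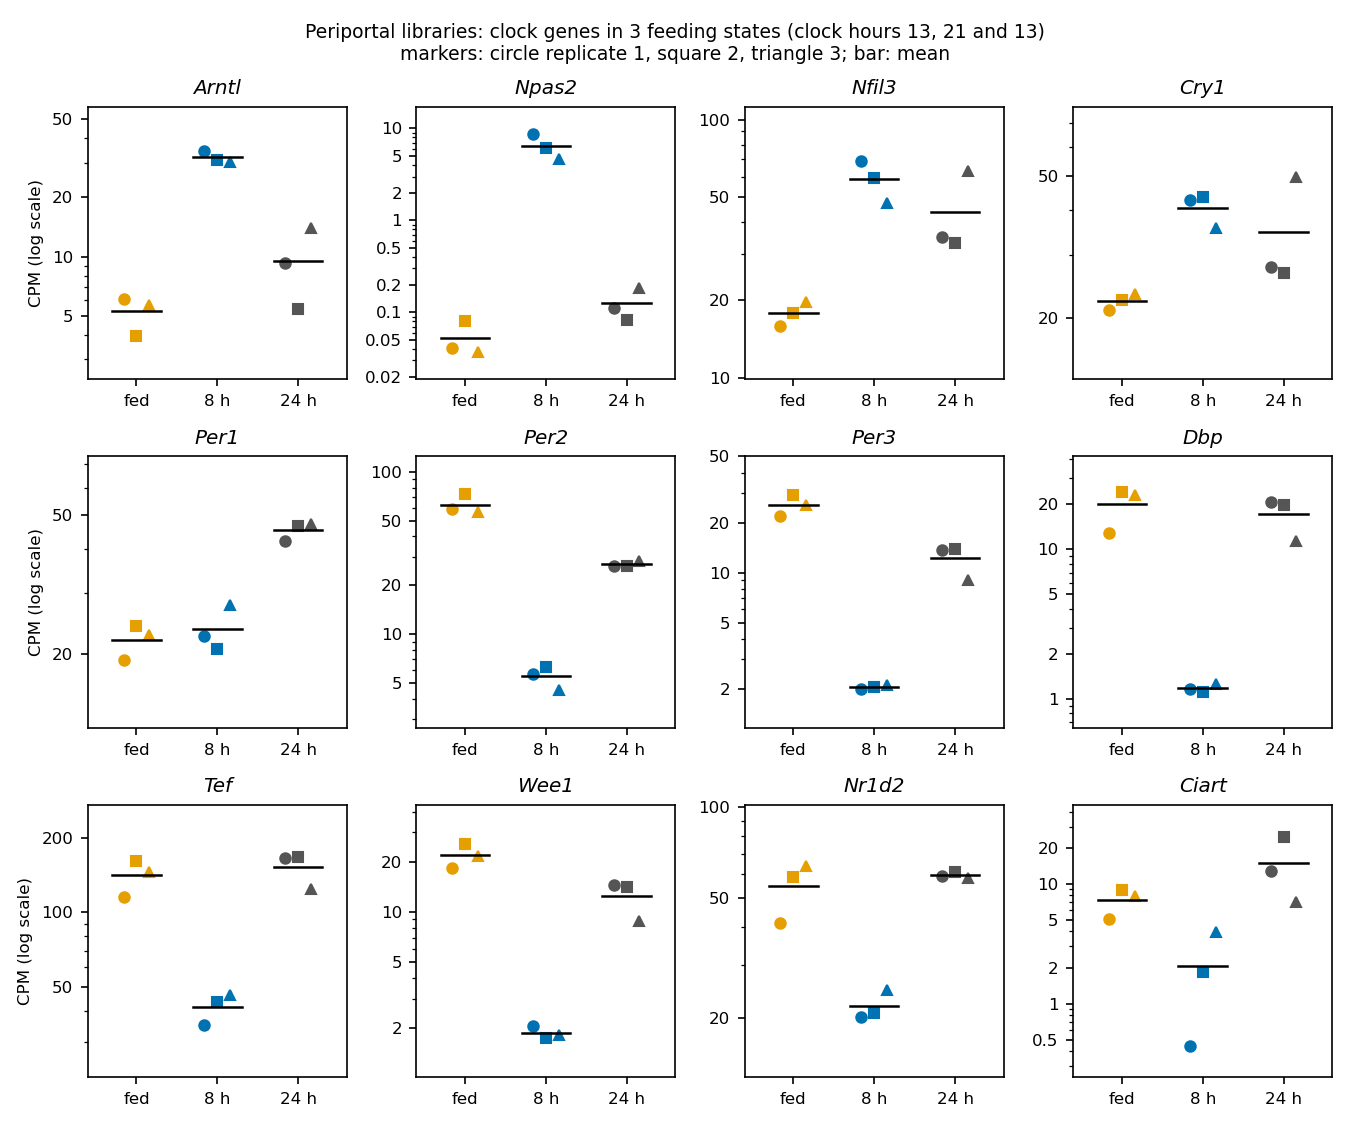
CPM (y axis, log scale) of 12 clock genes in periportal libraries of fed (clock hour 13), 8 h (clock hour 21) and 24 h fasted mice (clock hour 13). Symbols mark replicates 1 to 3 and bars the means. Arntl and Npas2 peak and Per2, Per3, Dbp, Tef and Wee1 dip in the 8 h group, whereas Per1 is near 22.0 CPM in fed and 23.6 CPM at 8 h.

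Chaperones of the endoplasmic reticulum fell or were not called, with 11 of 21 lower, 0 higher and a median of -0.55. Hspa5 (ENSMUSG00000026864), the luminal chaperone BiP, had 2050, 1360 and 2320 CPM in fed and 637, 721 and 727 CPM in fasted libraries (-1.46, SE 0.19, adjusted p = 8.11e-05). Creld2 fell from 104, 74.4 and 136 CPM to 26.4, 28.8 and 24.4 CPM (-1.98, SE 0.24, adjusted p = 7.74e-05). Hyou1, a large luminal chaperone, fell by 1.53 (adjusted p = 0.000533) and Manf, a secreted stress protein, by 1.43 (adjusted p = 0.00148). The fasted libraries of these 4 genes varied less than the fed ones, of which replicate 2 was lowest and replicate 3 highest. Xbp1, a transcription factor for these genes, fell by 0.61 (adjusted p = 0.0316), while Atf6 (0.23, adjusted p = 0.173) and Ern1 (0.02, adjusted p = 0.968) were not called. Calr and Canx, the lectin chaperones, were not called (-0.23 each). Without fed replicate 3 the list had 8 genes lower, and with 8 h replicate 1 left out as well, 7, the only setting to move it by over 1.5 times.

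Of 20 tested immediate early and heat shock genes 4 fell, 1 rose and 15 were not called (median -0.33), and Fosb did not pass the filter. Hspa8, the constitutive HSC70, went from 2410, 2030 and 2290 CPM to 1000, 1110 and 704 CPM (-1.26, SE 0.22, adjusted p = 0.00114). Hsp90aa1 fell from 351, 294 and 487 CPM to 128, 164 and 125 CPM (-1.44, SE 0.26, adjusted p = 0.00177), and its close relative Hsp90ab1 by 0.61 (adjusted p = 0.0253), a call lost in 6 settings, including without fed replicate 1 or 3 or 8 h replicate 2 or 3. Egr1, an immediate early factor, had 14.3, 21.1 and 6.87 CPM and then 126, 49.8 and 26.2 CPM (2.26, SE 0.69, adjusted p = 0.0452). Its call was lost in 9 settings, among them without any 1 library other than 8 h replicate 3 (adjusted p up to 0.394). Fos showed the same order at 8 h, 82.7, 43.3 and 16.1 CPM, and was not called (adjusted p = 0.105). Without fed replicate 3 the list had 2 genes lower, and without 8 h replicate 3 it had 2 lower and 2 higher. It had 0 higher without fed replicate 1, fed replicate 3, 8 h replicate 1 or 8 h replicate 2, and 2 without fed replicate 2. DESeq2 called 3 higher, and the median was -0.17 without 8 h replicate 3.

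In the list of ATF4 targets and growth arrest genes the calls were all higher. Of 21 tested genes 5 rose, 0 fell and 16 were not called (median 0.41), and Slc7a11 did not pass the filter. Ccng2, a cyclin that FOXO factors induce and that slows the cell cycle, had 5.16, 6.11 and 7.05 CPM in fed and 34.7, 38.5 and 36.3 CPM in fasted libraries (2.58, SE 0.31, adjusted p = 7.55e-05). Sesn2, a sestrin that inhibits mTORC1, went from 3.92, 4.91 and 5.00 CPM to 11.3, 12.9 and 10.6 CPM (1.33, SE 0.20, adjusted p = 0.000395). Btg1 rose from 39.0, 47.7 and 49.2 CPM to 107, 116 and 94.5 CPM (1.23, SE 0.19, adjusted p = 0.000411). Atf5 rose by 1.0 (adjusted p = 0.0103) and the cyclin kinase inhibitor Cdkn1b by 0.55 (adjusted p = 0.0231). Atf4 itself (-0.33, adjusted p = 0.138), Ddit3 (-0.57, adjusted p = 0.0579) and the serine synthesis genes Phgdh and Psat1 (0.27 and -0.12) were not called. The median was 0.22 without fed replicate 2 and 0.27 without 8 h replicate 1. DESeq2 called 7 genes of this list higher and 1 lower. A filter at a mean of at least 1 CPM gave 5 higher and 1 lower, as did leaving out both fed replicate 3 and 8 h replicate 1.

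Of 20 genes of bile acid synthesis and transport 5 rose and 0 fell, with a median of 0.26. Abcb11, the bile salt export pump, had 565, 564 and 530 CPM in fed and 1080, 1330 and 939 CPM in fasted libraries (1.01, SE 0.16, adjusted p = 0.000475). Abcg8, a subunit of the sterol exporter, went from 33.7, 38.5 and 33.8 CPM to 80.9, 71.4 and 111 CPM (1.31, SE 0.26, adjusted p = 0.00379), whereas its partner Abcg5 overlapped (0.13, adjusted p = 0.791). Abcb4, which exports phospholipid to bile, rose by 0.62 (adjusted p = 0.00879) and the acyl-CoA synthetase Slc27a5 by 0.43 (adjusted p = 0.0265). Cyp27a1, of the acidic synthesis route, had 180, 239 and 192 CPM and then 294, 302 and 306 CPM (0.56, SE 0.16, adjusted p = 0.0253), a call lost in 5 settings (0.48 to 0.56). Cyp7a1, the rate-limiting enzyme of the classic route, was uneven with 11.4, 41.8 and 47.5 CPM and then 23.3, 26.4 and 15.3 CPM (-0.63, adjusted p = 0.626). Without fed replicate 1 or 3, or 8 h replicate 2 or 3, the list had 3 genes higher.

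Autophagy genes rose in 5 of 21 cases, with 0 lower and a median of 0.22. Gabarapl1, an ATG8 protein of the autophagosome, went from 126, 166 and 194 CPM to 343, 240 and 248 CPM (0.78, SE 0.17, adjusted p = 0.00515). Map1lc3b, which encodes LC3B, rose from 64.5, 70.2 and 60.1 CPM to 90.3, 92.3 and 94.1 CPM (0.51, SE 0.09, adjusted p = 0.00159). Wipi1 (0.83, adjusted p = 0.00568), Atg12 (0.52, adjusted p = 0.00146) and Atg14 (0.47, adjusted p = 0.0373) rose too. Tfeb, a regulator of lysosome genes, was not called (-0.01, adjusted p = 0.977), nor were the lysosomal genes Lamp1, Lamp2 and Ctsb.

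Glycogen genes changed in 3 of 16 cases, 1 higher and 2 lower, with a median of 0.00. Gys2, the liver glycogen synthase, fell from 306, 293 and 217 CPM to 141, 176 and 157 CPM (-0.78, SE 0.19, adjusted p = 0.0116). Ppp1r3c, a scaffold that targets protein phosphatase to glycogen, rose from 84.8, 51.9 and 31.8 CPM to 132, 175 and 201 CPM (1.59, SE 0.42, adjusted p = 0.0205). The Gys2 call was lost without fed replicate 1 (-0.69, adjusted p = 0.0558), and that of Ppp1r3c without fed replicate 2 or 3 or 8 h replicate 2 or 3 (adjusted p up to 0.0738). The list had 1 gene lower without fed replicate 1 and 3 without 8 h replicate 2, 0 higher without fed replicate 2 or 8 h replicate 2 or 3, and medians from -0.10 to 0.04 with 1 library left out. Pygl, the liver phosphorylase, was not called (0.33, adjusted p = 0.255).

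Of 19 genes of growth hormone, IGF signalling and hepatokines 3 rose, 3 fell and 13 were not called (median 0.01). Ghr, the growth hormone receptor, fell from 580, 495 and 490 CPM to 395, 397 and 387 CPM (-0.41, SE 0.11, adjusted p = 0.0222). Igfals, which stabilises circulating IGF complexes, fell from 141, 93.6 and 140 CPM to 63.6, 70.2 and 65.6 CPM (-0.91, SE 0.19, adjusted p = 0.00515), and Inhba, an activin subunit, by 1.14 (adjusted p = 0.015). Stat5b, the transducer of growth hormone, rose by 0.75 (adjusted p = 0.00311), its feedback inhibitor Socs2 by 1.30 (adjusted p = 0.0172) and the lipid phosphatase gene Lpin2 by 0.82 (adjusted p = 0.0173). Igf1 (0.01, adjusted p = 0.984) and Fgf21 of the fatty acid list (0.62, adjusted p = 0.624) were not called. Inhba was lost without fed replicate 1 or 8 h replicate 2 or 3, Socs2 without fed replicate 1 or 8 h replicate 3 and Lpin2 without fed replicate 1 or 3 or 8 h replicate 2 (adjusted p up to 0.0963). Without fed replicate 1 the list held 1 gene higher and 1 lower, and without 8 h replicate 2 or 3 it held 2 higher and 1 lower. The median ran from -0.33 without 8 h replicate 1 to 0.13 without fed replicate 1, so its sign rests on single libraries, and it was -0.38 by limma-voom. With only these groups 1 gene was lower.

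Genes outside the lists were named for the size of their change or, as Pxmp4 and Tuba1c, for their small adjusted p. Elovl3, an elongase of very long fatty acids, went from 5.65, 5.75 and 3.05 CPM to 127, 52.3 and 56.9 CPM (4.03, SE 0.77, adjusted p = 0.00361). Scara5, a ferritin receptor, had 1.77, 0.799 and 0.735 CPM and then 5.49, 42.7 and 50.9 CPM (4.91, SE 1.12, adjusted p = 0.0105), with 8 h replicate 1 low, and was not called under limma-voom. Nlrp12, an inflammasome regulator, rose evenly from 2.27, 1.60 and 3.89 CPM to 22.8, 20.4 and 27.2 CPM (3.17, SE 0.26, adjusted p = 2.15e-06), and Lgals4, a galectin, from 1.11, 2.12 and 2.76 CPM to 23.9, 7.65 and 8.53 CPM (2.73, SE 0.42, adjusted p = 0.000603). Nrep (ENSMUSG00000042834) fell from 48.4, 34.9 and 48.6 CPM to 2.34, 3.69 and 3.40 CPM (-3.81, SE 0.29, adjusted p = 9.88e-07). Pxmp4, a peroxisomal membrane protein, rose from 58.3, 53.9 and 52.7 CPM to 199, 164 and 178 CPM (1.71, SE 0.13, adjusted p = 6.96e-07). Tuba1c, a tubulin with near-identical relatives, fell from 206, 203 and 164 CPM to 47.5, 56.7 and 50.6 CPM (-1.89, SE 0.13, adjusted p = 6.47e-07).

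Among the genes called, the 5 largest rises in mean CPM included all 3 chains of fibrinogen, the clotting protein that hepatocytes secrete. Fga had 3380, 3150 and 2850 CPM in fed and 7010, 8480 and 6530 CPM in fasted libraries (1.23, SE 0.32, adjusted p = 0.0169). Fgb went from 3040, 3010 and 2370 CPM to 5170, 6940 and 5190 CPM (1.04, SE 0.30, adjusted p = 0.0299) and Fgg from 1990, 2010 and 1530 CPM to 4180, 5480 and 3970 CPM (1.30, SE 0.29, adjusted p = 0.00609). Fed and fasted libraries did not overlap for any chain. The Fga call was lost in 4 settings and the Fgb call in 6, both without fed replicate 2, fed replicate 3 or 8 h replicate 2 (adjusted p up to 0.094 and 0.127), with log2 fold changes of at least 0.88. Alb, the gene of serum albumin, also secreted by hepatocytes, had 117000, 101000 and 99700 CPM in fed and 93000, 147000 and 133000 CPM in fasted libraries, with overlap (0.23, adjusted p = 0.518).

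The same 8 h change was set beside that of pericentral hepatocytes, where edgeR called 13.8% of genes. The test of the zone difference, the periportal change minus the pericentral one, called 0% of the 12477 genes by edgeR, with 680 genes at an unadjusted p under 0.05. DESeq2 called 6 genes, among them Angptl4 (1.54, adjusted p = 0.0482) and Prpf4b (0.83, adjusted p = 0.00288), and limma-voom 0. The smallest unadjusted p with a larger periportal change belonged to Prpf4b, a splicing kinase (0.62 periportal, -0.20 pericentral, adjusted p of the difference 0.332), Angptl4 (4.27 and 2.74, difference 1.53, SE 0.37, adjusted p = 0.909) and Tmem128 (0.44 and -0.15). Those with a more negative periportal change included Ajuba (-0.90 and 0.23) and Ctnnbip1, an inhibitor of β-catenin (-0.25 and 1.07). Pck1 changed by 1.91 in periportal and 3.64 in pericentral hepatocytes, a difference of -1.73 (SE 0.65, adjusted p = 0.909). Khk changed by 1.0 and -0.03, a difference of 1.02 (SE 0.34, adjusted p = 0.909), and was called only in the periportal comparison, which by this test does not show that the zones differ.

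The 24 h fast was set beside the 8 h fast in periportal hepatocytes, and edgeR called 7.46% of genes between them, 3.22% higher and 4.24% lower at 24 h. The 24 h group was killed at clock hour 13 and the 8 h group at clock hour 21. Fasting length and clock hour therefore changed together, and their effects cannot be told apart. That comparison shares the 8 h libraries with that of 8 h against fed. An 8 h level low by error would favour a fall there and a rise here, and a high one the reverse. Counts that cross both comparisons are thus descriptions and not a test. At 24 h, again at clock hour 13, 8 of the 11 clock genes that had fallen were called higher than at 8 h. Per2 had 27.0 ± 1.08 CPM (SD, n = 3) at 24 h against 5.48 ± 0.887 CPM at 8 h (2.30, adjusted p = 2.97e-06), and 62.7 ± 8.74 CPM in fed libraries. Arntl had 9.52 ± 4.27 CPM at 24 h against 32.0 ± 2.24 CPM at 8 h (-1.75, adjusted p = 0.00756). Per1, level at 8 h, reached 45.3 ± 2.66 CPM at 24 h (0.94, adjusted p = 0.00338).

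In sugar and lipid metabolism, 4 of 17 glycolysis and fructose genes and 4 of 13 lipogenic genes not called at 8 h were lower at 24 h than at 8 h. Pklr went from 869 ± 83.2 CPM at 8 h to 168 ± 28.6 CPM at 24 h (-2.37, adjusted p = 0.000943). Tkfc went from 940 ± 147 to 292 ± 80.7 CPM (-1.69, adjusted p = 0.000352) and Acacb from 274 ± 59.6 to 45.1 ± 5.06 CPM (-2.60, adjusted p = 0.00712). The other 5 were Eno1, Mlxipl, Acss2, Agpat2 and Me1. Of the 10 lipogenic genes that had fallen at 8 h, 8 were not called between 8 h and 24 h, among them Srebf1 with 64.6 ± 11.2 and 61.6 ± 21.2 CPM and Fasn with 87.3 ± 20.8 and 44.0 ± 13.2 CPM (adjusted p = 0.939 and 0.144). Khk, Elovl5 and Insig2, higher at 8 h, were lower at 24 h than at 8 h (-1.18, -1.42 and -1.08). In cholesterol synthesis 5 of the 17 genes that had fallen were higher at 24 h than at 8 h, Fdft1, Hsd17b7, Idi1, Msmo1 and Mvk.

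In the fatty acid list, 6 of the 31 genes not called between 8 h and fed were higher at 24 h than at 8 h. They were Acadl, Acadm, Cidec, Cpt2, Decr1 and Ppara. Acadm, for example, went from 342 ± 21.4 to 516 ± 45.7 CPM (0.59, adjusted p = 0.0349). Ppargc1a went from 15.2 ± 4.21 to 36.8 ± 4.32 CPM (1.28, adjusted p = 0.00379), while Pck1 was not called between 8 h and 24 h (4660 ± 1850 and 5920 ± 370 CPM, adjusted p = 0.731). Of the chaperone list, 6 genes not called at 8 h were lower at 24 h than at 8 h, including Calr (-1.09) and Pdia6 (-1.12). This comparison depended on single libraries. Against 931 calls in all, omitting 8 h replicate 2 gave 422 and omitting 8 h replicate 3 gave 588. Omitting 24 h replicate 2 gave 338, and omitting 24 h replicate 3 gave 560.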

How the data were processed

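The authors deposited estimated counts per gene for 18 libraries, per the file headers, with 67.5 to 70.5% of values whole (tolerance 1e-09). The submitters' processing notes name kallisto 0.46.0 and the build mm10 without their roles, and strand use is not given in the sources used here. The table pairs 27566 of its 28030 gene identifiers with a symbol, and 20481 genes had a count. The deposited estimated counts were rounded to whole numbers, filtered by edgeR's filterByExpr to 12477 genes, scaled by TMM and fitted over all 18 libraries and 6 groups with edgeR 4.0.16 (R 4.3.3, robust quasi-likelihood F test, two-sided, Benjamini-Hochberg adjusted p under 0.05). DESeq2 1.42.0 and limma 3.58.1 (voom) gave alternatives, with other scalings, filters, a replicate block, only the groups compared, and each library left out. The method was tested on simulated data. The 6 libraries compared held between 24033862 and 26278425 counts, and counting intervals cover counting error only.

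Genes were named if they belonged to a fixed list of key genes, were among the 12 largest fold changes each way (called, at least 10 CPM in the higher group, groups not overlapping, no predicted gene), the 5 largest CPM differences each way among called genes, up to 4 called members of each of 16 gene lists, or had the 3 smallest p-values each way in either the 8 h comparison or the zone difference. Other list members are named beside them. Members, lists and rules were chosen with earlier results of these data known. Promoters came from RefSeq (GRCm38.p6) by symbol, for 66 of 91 named genes. Some genes that the rule named are counted within their lists but not reported by name here.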

Additional observations from a re-analysis of the deposited data

How the results depend on the processing

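Against 1798 genes called between 8 h and fed periportal libraries, fitting only the groups compared called 1195 genes, of which 1112 were among the 1798. Leaving out 1 library called 1094 (without fed replicate 1, 1065 shared) to 1617 genes. Leaving out both fed replicate 3 and 8 h replicate 1, an alternative chosen after seeing the data, called 1324, of which 1124 were shared. DESeq2 size factors (1817), scaling without the 20 most abundant genes (1794), no filter beyond 1 count (1503), a mean of at least 1 CPM (1842), DESeq2 (2147) and limma-voom (1742) stayed within 1.5 times. The zone difference gave 0 calls with edgeR, 6 with DESeq2 (Angptl4, Birc2, Gm14440, Irf5, Krt83 and Prpf4b) and 0 to 3 with 1 library left out, 3 of them (Krt15, Krt17 and Krt75) without pericentral 8 h replicate 3. The comparison of 24 h with 8 h gave 931 calls, 374 with only the groups compared and 338 to 801 with 1 library left out, and without 8 h replicate 3 the share of higher genes went from 43.2% to 32.8%. Of 83 named genes that were called, 55 were called in all 15 alternatives and 28 were not, and none of the 91 named genes reversed. The cause of these moves was not tested.

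Whether replicate numbers pair the samples was not tested. Deviations from group means of same-numbered fed and 8 h libraries correlated across genes with r of -0.0613, 0.0404 and 0.0372. Those of differently numbered libraries gave r from -0.0987 to 0.0614. With a replicate block edgeR called 1876 genes between 8 h and fed, 1785 in pericentral libraries, 965 between 24 h and 8 h and 0 for the zone difference. The glucocorticoid list then held 10 genes higher at 8 h than in fed libraries, against 7 without the block.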

Other observations

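Genes outside the lists were looked through after their values were seen, and these are given as values. Of 42 tested carriers of the mitochondrial Slc25 family, 9 were called higher after the 8 h fast and 4 lower by edgeR (median log2 fold change 0.13). Over all genes tested, 7.56% were called higher and 6.85% lower. Slc25a47, a carrier of liver mitochondria, had 438, 450 and 394 CPM in fed and 978, 1110 and 990 CPM in fasted libraries (1.27, SE 0.20, adjusted p = 0.000422). Slc25a22, a glutamate carrier, went from 70.8, 84.0 and 70.9 CPM to 194, 349 and 259 CPM (1.83, SE 0.27, adjusted p = 0.000384). Slc25a37, which imports iron for haem synthesis, fell from 49.6, 57.3 and 50.3 CPM to 31.1, 20.1 and 18.7 CPM (-1.17, SE 0.20, adjusted p = 0.0011). Slc25a10, the dicarboxylate carrier, fell by 0.74 (adjusted p = 0.00568).

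A pair of genes of haem synthesis control moved in opposite directions. Clpx, an unfoldase of the mitochondrial matrix that acts on ALAS1, rose from 88.6, 80.8 and 103 CPM to 463, 439 and 471 CPM (2.33, SE 0.19, adjusted p = 1.12e-06). Alas1, the rate-limiting enzyme of haem synthesis in liver, fell from 522, 398 and 422 CPM to 184, 61.2 and 145 CPM (-1.78, SE 0.44, adjusted p = 0.015). Nampt, the rate-limiting enzyme of NAD salvage, fell from 226, 186 and 205 CPM to 57.1, 73.0 and 91.6 CPM (-1.48, SE 0.21, adjusted p = 0.000277). Tymp, the thymidine phosphorylase, rose from 24.3, 27.3 and 32.3 CPM to 156, 133 and 124 CPM (2.30, SE 0.20, adjusted p = 3.26e-06). Krt83, a keratin gene, had 0 counts in the 3 fed libraries and 553 in the fasted ones (6.99, 9.25 and 8.01 CPM). This is 205-fold higher against a floor of 3 counts over the group, a ratio from counts only (SE 2.81 on the log2 scale, adjusted p = 0.0266). Elsewhere it was uneven, with a mean ± SD of 3.51 ± 6.07 CPM in pericentral 8 h and 3.44 ± 3.53 CPM in periportal 24 h libraries. The cochaperone genes Dnaja1 and Stip1 fell by 1.36 (adjusted p = 0.000106) and 1.25 (adjusted p = 9.76e-05). Of 10 tubulin genes 3 fell, Tuba1c, Tuba4a and Tubb4b, and 0 rose, beside 6.85% lower and 7.56% higher over all genes. Receptors of inflammatory cytokines, Il1r1 and Il6ra, rose by 1.79 (adjusted p = 0.00727) and 1.28 (adjusted p = 0.00861), with 8 h replicate 1 the lowest fasted library in both.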
